A study of Mus musculus and Macaca mulatta with 39 samples.

Results

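In embryonic mouse cortex, 744 stretches of the autosomes were called for acetylation of histone H3 at lysine 27 (H3K27ac) at embryonic day 11.5 (E11.5) and at no later stage. Regions of the 8 mouse H3K27ac lists that overlapped or touched were merged into loci, and a locus was kept where both E11.5 lists, but none of the 6 lists of E14.5 and E17.5, called it on an autosome. They are 0.558% of the 133378 autosomal H3K27ac loci and 2.57% of the 28959 loci called in both E11.5 lists. For comparison, 22833 autosomal loci were called in all 8 lists. The loci were thus chosen by H3K27ac, whose values are given as a description with no test. The second mark, dimethylation of histone H3 at lysine 4 (H3K4me2), was not used by the rule.

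The series is chromatin immunoprecipitation with sequencing (ChIP-seq) on cortex of C57BL6J mice, with no genotype or treatment named in the labels. The 4 tissues were cortex at E11.5, cortex at E14.5, E17.5 frontal cortex and E17.5 occipital cortex, each with 2 biological replicates and with both marks precipitated from each replicate beside a shared input. The title of the series names promoter and enhancer activity during corticogenesis as its subject. The deposited lists hold only the positions of called regions, so a locus is valued in each list by how many bp of it the regions cover, and read depth is unknown. Rhesus lists of the same series are not used here. Positions are on mm9.

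H3K27ac marks promoters and enhancers in use and is removed by histone deacetylases. H3K4me2 is laid down at promoters and enhancers both active and poised, and it can precede acetylation or outlast it. At E11.5 the mouse cortex is mostly a sheet of dividing neuroepithelial and radial glial progenitors, and by E17.5 most of its cells are postmitotic neurons. Each list comes from bulk tissue, so fewer cells that carry a mark and less of the mark in each cell cannot be told apart.

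The 744 loci were short and lightly covered. Their median width was 1037.5 bp, with quartiles of 850 and 1525 bp and a range from 525 to 5825 bp. In E11.5 replicate 1 the median covered length was 825 bp, and in replicate 2 it was 725 bp. Under 1000 bp lay 336 loci (45.2%), and at 2000 bp or more lay 110 (14.8%). Loci called in all 8 lists had a median width of 3250 bp and median E11.5 coverage of 2025 and 1625 bp, though the width of a merged locus grows with the number of lists merged into it. Loci called in both lists of another tissue alone were about as narrow, with medians of 950 bp for the 470 loci of E14.5 and 926 and 925 bp for the 1582 frontal and 637 occipital loci of E17.5. All 744 loci together held 0.7967 Mb of the replicate 1 list and 0.6443 Mb of the replicate 2 list, or 0.967% and 1.06% of the autosomal length those lists cover. The 22833 shared loci held 73.3% and 75.7% of it.

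The presence rule has a sharp edge. Just outside it stood 666 loci of both E11.5 lists that exactly 1 later list also called, with a median width of 1212 bp and median E11.5 coverage of 900 and 762.5 bp. In 223 of them that later list was E17.5 frontal replicate 1, in 217 E14.5 replicate 1, in 95 E14.5 replicate 2, in 84 E17.5 occipital replicate 2, in 25 E17.5 frontal replicate 2 and in 22 E17.5 occipital replicate 1. Also just outside were 10448 loci called in 1 E11.5 list and in no later list, 4266 of them in replicate 1 and 6182 in replicate 2, with a median width of 600 bp. The E11.5-only loci lay between these groups in width and in coverage.

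The overlap of the replicates at the 744 loci was about that at the loci with 1 later list. Per locus, the length covered by both lists divided by the length covered by either had a median of 0.556 in the E11.5-only loci, with quartiles of 0.351 and 0.719, of 0.567 in the 666 loci with 1 later list and of 0.756 in the wider loci called in all 8 lists. The median length covered by both lists was 550 bp. At 8 of the 744 loci the regions of the 2 lists only touched, with no shared base. At 23 of the 666 the 2 lists also shared no base, though there a later region may have joined them. Replicate 1 covered more at 436 loci, replicate 2 at 284, and the lengths were equal at 24.

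**Figure D1:**
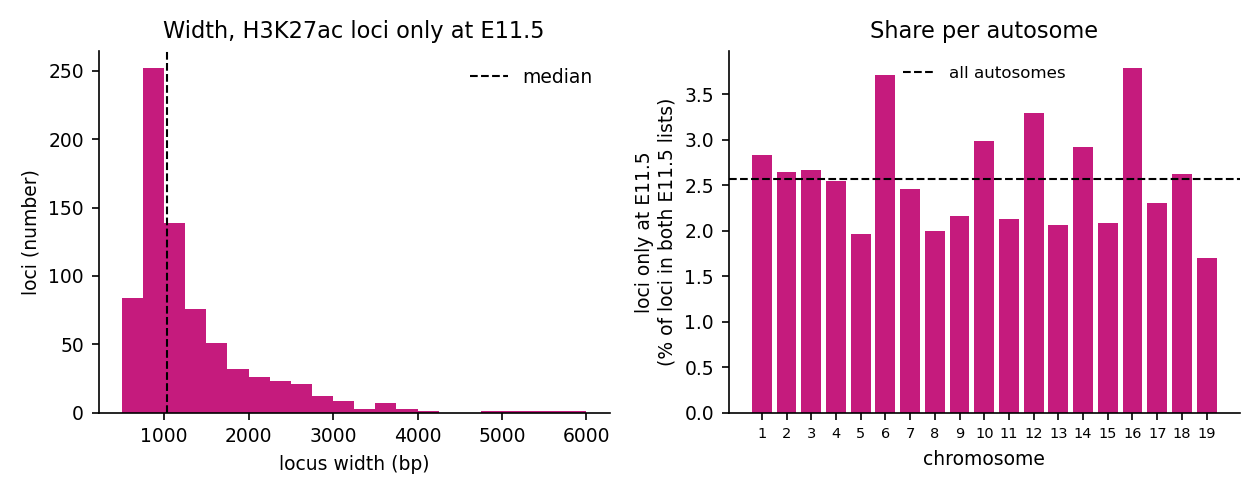
Left, number of H3K27ac loci only at E11.5 by locus width in bp, with the median of 1037.5 bp as a dashed line. Right, these loci as a percentage of the loci called in both E11.5 lists on each autosome, with the value over all autosomes (2.57%) as a dashed line; bars run from 1.7% on chromosome 19 to 3.79% on chromosome 16.

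E11.5-only loci occurred on all 19 autosomes. As a share of the loci called in both E11.5 lists they ranged from 1.7% on chromosome 19 (14 of 822 loci) to 3.79% on chromosome 16 (37 of 975), with a median of 2.55%. Chromosome 6 held the most, 63 loci or 3.71% of its loci called in both E11.5 lists, which is 4.21 per 10 Mb. The median over autosomes was 2.91 per 10 Mb, and the lowest density, 2.24, was on chromosome 13.

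The median distance to the nearest other E11.5-only locus was 509 kb, and the closest pair lay 0.825 kb apart. The nearest H3K27ac region of any later list lay a median of 4.66 kb away, with quartiles of 1.88 and 9.88 kb. A later region lay within 1 kb of 105 loci, within 5 kb of 393 and within 10 kb of 560, and 4 loci had none within 100 kb. The 10448 loci called in 1 E11.5 list and no later one lay at a median of 3.59 kb from a later region, with quartiles of 1.32 and 9.55 kb, and 76% of them had one within 10 kb, against 75.3% of the E11.5-only loci. With gaps of at most 50 kb, 91 of the 744 loci (12.2%) stood in 43 groups of at least 2, and 13 (1.75%) stood in 4 clusters of at least 3.

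The largest cluster held 4 loci in 36.9 kb of chromosome 11, chr11:32142501-32179375. At chr11:32142501-32148200 H3K27ac covered 5600 bp in E11.5 replicate 1 and 1150 bp in replicate 2. At chr11:32149726-32152600 it covered 2875 and 600 bp, and at chr11:32154176-32157150 it covered 2975 and 1450 bp. Replicate 1 was longer at these 3 loci, by 2-fold or more. At chr11:32176401-32179375 the lengths were close, 2825 and 2950 bp. None of the 4 held an H3K4me2 region in any of the 8 H3K4me2 lists. The span held 6 H3K27ac loci in all, of which 1 was called in all 8 lists.

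The other clusters had 3 loci each. On chromosome 6, chr6:31537176-31568650, H3K27ac covered 4350 bp in replicate 1 and 6075 bp in replicate 2, and no locus held H3K4me2. On chromosome 2, chr2:31913126-31987625, it covered 3125 and 2325 bp, in a span of 13 loci of which 7 were also called later. On chromosome 1, chr1:186468176-186500100, it covered 4075 and 3800 bp. One of its loci, chr1:186498976-186500100, had no H3K4me2 in either E11.5 list, 0 and 1025 bp at E14.5, 1025 and 0 bp in frontal cortex at E17.5, and 1075 bp in both occipital lists. H3K4me2 was thus called there only in lists of stages at which H3K27ac was not, and its change did not pass the test described below (log2 change 2.67, SE 1.22, limma adjusted p = 0.2485 in occipital cortex).

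Of the 8 loci with the longest mean E11.5 coverage outside chromosome 18, 5 had no H3K4me2 in any list. At chr2:172860626-172864075 H3K27ac covered 3075 bp in replicate 1 and 3450 bp in replicate 2, and both lists shared 3075 bp of it. No H3K4me2 list reached the locus, and the nearest E11.5 H3K4me2 regions were 8.85 and 8.53 kb away. At chr4:46419876-46425000 the replicates differed, with 5100 and 950 bp, and the nearest E11.5 H3K4me2 regions were 16.1 and 15.7 kb away. The same absence held at chr11:32142501-32148200 and chr11:32176401-32179375 of the cluster above, and at chr7:151967101-151972925 (5825 and 3675 bp), where H3K4me2 ended 2.27 and 1.27 kb away. At chr11:102222751-102228075 (3025 and 4775 bp) H3K4me2 covered 500 bp in E11.5 replicate 2 alone. Only chr9:21938776-21942775 and chr11:87562026-87565325 held H3K4me2 in both E11.5 lists, and in no later list, as described below.

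H3K4me2 was called at a minority of the E11.5-only loci even at E11.5. It was present, by at least 1 bp, at 102 of the 744 loci (13.7%) in E11.5 replicate 1 and at 238 (32%) in replicate 2. At E14.5 it was present at 27 (3.63%) and 65 (8.74%), in E17.5 frontal cortex at 49 (6.59%) and 31 (4.17%), and in E17.5 occipital cortex at 36 (4.84%) and 79 (10.6%). Both E11.5 values lay above all 6 later values. As means ± SD over 2 lists the shares were 22.9 ± 12.9% at E11.5, 6.19 ± 3.61% at E14.5, 5.38 ± 1.71% in frontal and 7.72 ± 4.07% in occipital cortex.

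Over all 133378 autosomal loci the shares did not have this order, at 26.9 ± 6.72%, 25.5 ± 5.44%, 30.1 ± 2.76% and 40.1 ± 8.2% in the same order. Among loci called in both occipital H3K27ac lists alone, the mean was also highest in their own tissue, at 36.9 ± 15.3%. It was 5.1 ± 3.89% at E11.5, 5.18 ± 2.88% at E14.5 and 10.5 ± 4.47% in frontal cortex. Loci of E14.5 alone and of frontal cortex alone had their highest means in occipital cortex, at 21.6 ± 7.35% and 15.3 ± 8.44%. A highest mean in the tissue of the H3K27ac calls was thus not particular to E11.5-only loci. Divided by the share over all loci, the share at E11.5-only loci was 0.621 and 1.01 in the E11.5 lists and between 0.141 and 0.298 in the later ones. Loci called in all 8 H3K27ac lists held H3K4me2 at 85.4% and 93.9% at E11.5 and at 83.9% to 97.5% later. The length of the H3K4me2 lists moves with these shares: the E11.5 lists covered 69.3 and 111.7 Mb, and the later ones 65.3 to 162.2 Mb. With the same number of the widest H3K4me2 regions taken from each list, the share at E11.5-only loci was 12.4% and 13.2% at E11.5 and 1.88% to 3.63% later, and over all loci it was 21.4% to 23.5% throughout. This cut drops the narrowest regions, and more of them from longer lists. In occipital replicate 2 it lowered the share at E11.5-only loci from 10.6% to 1.88%, and over all loci from 45.9% to 23.5%. The cut thus does not act alike on both sets and cannot remove the effect of list length.

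**Figure D2:**
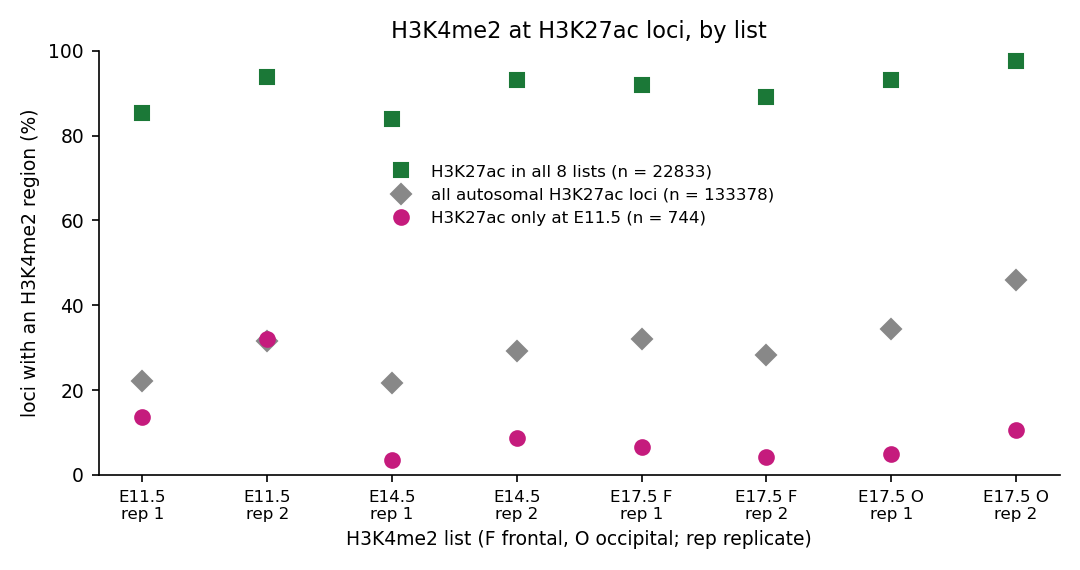
Percentage of loci that overlap an H3K4me2 region in each of the 8 H3K4me2 lists, for the 744 H3K27ac loci only at E11.5 (circles), all autosomal H3K27ac loci (diamonds) and loci called in all 8 H3K27ac lists (squares). The circles stand at 13.7% and 32% at E11.5 and between 3.63% and 10.6% later, while the squares stay between 83.9% and 97.5%.

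Within each band of width, E11.5-only loci had lower E11.5 shares of H3K4me2 than the 666 loci with 1 later H3K27ac list or all loci called in both E11.5 lists. These are shares without a test. In E11.5-only loci under 1000 bp, 10.4% and 26.2% held H3K4me2 in the E11.5 lists, against 19.7% and 40.1% with 1 later list, 16.8% and 36% of all loci of both E11.5 lists, and 3.03% and 8.34% of all autosomal loci of that width. At 1000 to under 2000 bp the shares were 16.4% and 37.2%, against 24.6% and 49.5%, 69.5% and 82.4%, and 24% and 36% in the same order. At 2000 bp or more they were 16.4% and 35.5%, against 29.3% and 52%, 79.5% and 90.3%, and 48% and 61.6%. Loci called in all 8 lists held 90.6% and 96% at 1000 to under 2000 bp. Banded instead by mean E11.5 H3K27ac coverage, a choice made after seeing the data, E11.5-only loci held 12.1% and 29.5% under 1000 bp, 18% and 39.8% at 1000 to under 2000 bp, and 12.1% and 21.2% at 2000 bp or more. That last band holds 33 loci. In loci called in all 8 lists the shares went from 48.4% and 71.2% to 93.3% and 98.1% over the same bands.

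Among loci called in both E11.5 H3K27ac lists, the E11.5 share of H3K4me2 was higher the greater the number of later lists that also called the locus. With 0, 1, 2, 3, 4, 5 and 6 later H3K27ac lists it was 13.7%, 24.3%, 31.7%, 38.6%, 49.8%, 55.8% and 85.4% in replicate 1. In replicate 2 it was 32%, 47.7%, 58.1%, 62.3%, 71.2%, 78.1% and 93.9%. Locus width and E11.5 H3K27ac coverage increased along the same steps, coverage from a median of 787.5 to 1837.5 bp. Their part in the trend was not tested. The share of loci with H3K4me2 in no list at all went from 64.8% to 0.937%.

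**Figure D3:**
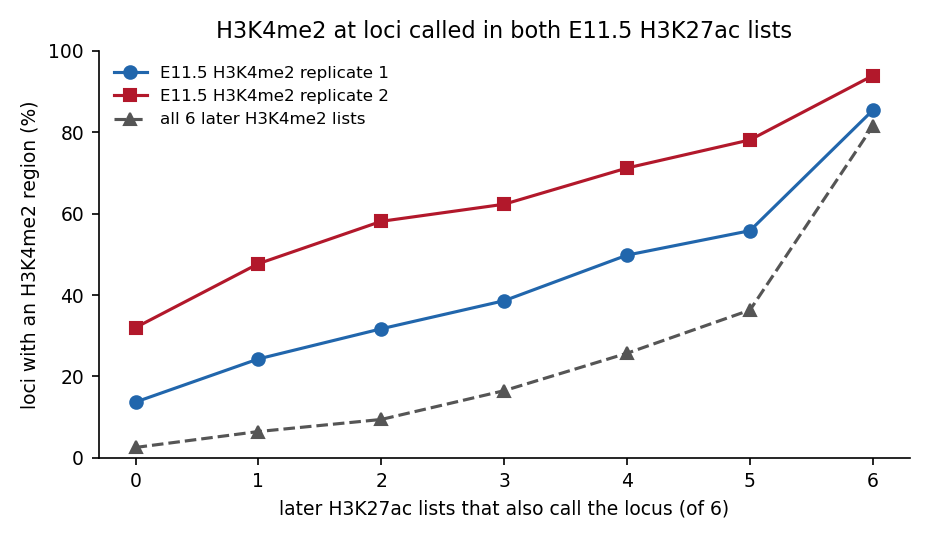
Percentage of loci with an H3K4me2 region, among loci called in both E11.5 H3K27ac lists, by the number of later H3K27ac lists (0 to 6) that also call the locus. The lines run from 13.7% to 85.4% (E11.5 replicate 1), from 32% to 93.9% (E11.5 replicate 2) and from 2.55% to 81.5% (H3K4me2 in all 6 later lists).

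By H3K4me2 the 744 loci fell into unequal classes. The largest had no H3K4me2 region in any of the 8 lists and held 482 loci (64.8%), against 47.9% of all autosomal loci. At loci called in both H3K27ac lists of another tissue alone, this share was 60.6% for E14.5, 72.9% for frontal and 49% for occipital cortex. Another 21 (2.82%) of the 744 loci had none at E11.5 and some later, 15 of them in a single later list and none in all 6. Over all autosomal loci that share was 20.2%. H3K4me2 was called in 1 E11.5 list at 142 loci (19.1%), of which 139 (97.9%) were in replicate 2, the longer list, and 120 (84.5%) had none later. Over all autosomal loci it was called in 1 E11.5 list at 10.1%. Of those, 96.7% were likewise in replicate 2, and 24.7% had none later. At the E11.5-only loci H3K4me2 was called in both E11.5 lists at 99 (13.3%), against 21.8% of all autosomal loci.

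Of these 99 loci, 39 (39.4%) had H3K4me2 in none of the 6 later lists, 18 (18.2%) kept it in all 6, and 42 (42.4%) had it in 1 to 5. At E14.5 it was kept in both lists at 23 and absent from both at 47. In E17.5 frontal cortex it was kept in both lists at 26 and absent from both at 60, and in occipital cortex at 28 and 56. The same division in loci called in all 8 H3K27ac lists was 40 of 19420 (0.206%) absent later and 17799 (91.7%) kept in all 6. In the 666 loci with 1 later H3K27ac list, 42 of 152 (27.6%) were absent later and 41 (27%) were kept in all 6. Over all autosomal loci it was 743 of 29026 (2.56%) absent later and 22977 (79.2%) kept in all 6. In the 10448 loci called in 1 E11.5 H3K27ac list and no later one, 147 of 357 (41.2%) were absent later and 43 (12%) kept. That is near the division in the 99 loci. H3K4me2 was thus absent from every later list at some of the 99 loci and retained in every one at others, with 60 (60.6%) keeping it in at least 1. With equal numbers of H3K4me2 regions 60 loci held it in both E11.5 lists, 36 of them with none later and 6 with all 6, and 10 kept it in all 8 lists at an overlap of at least 50% of the locus. Without E11.5 H3K4me2 replicate 1, 238 loci held it in the E11.5 list that is left, 156 of them with none later.

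**Figure D4:**
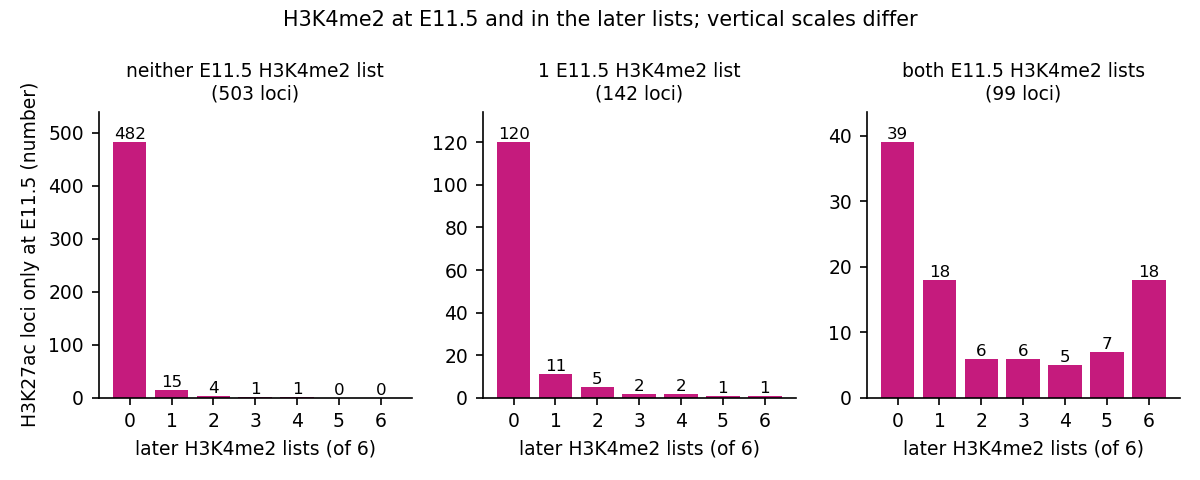
Number of H3K27ac loci only at E11.5 by the number of later H3K4me2 lists (0 to 6) that call them, in panels for H3K4me2 in neither, 1 or both E11.5 lists (503, 142 and 99 loci), with vertical scales that differ. Of the loci with H3K4me2 in both E11.5 lists, 39 had it in no later list, 18 in 1 and 18 in all 6, with 5 to 7 at each number between.

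The classes differed in extent. Loci whose H3K4me2 was absent later were the wider ones, with a median width of 1300 bp and 1075 bp of E11.5 H3K27ac, and E11.5 H3K4me2 covered a median of 67.4% of the locus. Loci that kept it had a median width of 962.5 bp and 837.5 bp of H3K27ac, and H3K4me2 covered a median of 99.5% of the locus. Seen as H3K4me2 loci of their own, merged over the 8 H3K4me2 lists, those around the first class had a median width of 1325 bp and those around the second 2837.5 bp, with the largest at 10475 bp. A wider merged locus is in part given by the number of lists merged. Loci without any H3K4me2 had a median width of 1000 bp and 750 bp of H3K27ac.

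H3K4me2 length was then compared between stages locus by locus, with limma on log2(covered bp + 200) over all 50325 autosomal loci called in at least 2 H3K27ac lists and holding H3K4me2 in at least 2 H3K4me2 lists. Of the 744 E11.5-only loci 127 passed this filter, so that the counts below say nothing of the rest. With Benjamini-Hochberg adjusted p below 0.05, H3K4me2 was lower than at E11.5 at 38 of the 127 at E14.5, at 38 in E17.5 frontal cortex and at 39 in E17.5 occipital cortex, and higher at 0, 0 and 1. Over all tested loci the share called lower was 1.34%, 1.64% and 1.41%, and the share called higher was 2.30%, 6.89% and 14.7%. At an unadjusted p below 0.05, 52, 58 and 58 of the 127 were lower and 0, 0 and 2 higher. In each of these lower counts 39 loci had H3K4me2 in both E11.5 lists and in no later list. Another 18 of the 127 had it in both E11.5 lists and 1 later list. They too passed the filter through E11.5 alone and were at 0 bp in most later lists. Over all 50325 tested loci 1877, 2271 and 1394 were lower at that threshold, and 2087, 7008 and 13273 higher.

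The called loci and the class with no later H3K4me2 are nearly the same set, since 38 loci called lower in all 3 comparisons were among its 39. Those 39 passed the filter only through their E11.5 lists and had to be lower later, so their count supports nothing further. In occipital cortex over all loci, the median change was 0.303 on the log2 scale and not near 0, and it was 0.020 in frontal cortex and 0.000 at E14.5. Divided by the total length of each list, the values gave a median of -0.157 in occipital cortex, and 49 loci were then lower there and 1 higher. None of the 18 loci with H3K4me2 in all 8 lists was called in a comparison, and 2, 2 and 3 of them were lower at an unadjusted p below 0.05. With 2 lists a tissue, a change at those loci that was not called may still be present. Between the E17.5 tissues, in a comparison added after seeing the data, 1 of the 127 loci was lower in occipital than in frontal cortex and 1 was higher, against 0.523% and 6.16% of all tested loci. The former was not called with H3K4me2 required in at least 3 lists. The latter entered the test through its occipital lists alone, so that its call was built in.

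The 5 loci with the longest E11.5 H3K4me2 in the class without later H3K4me2 are given as a description with no p, since the choice of the class sets their later values to 0 bp. The choice also leaves no spread among their later lists. This lowers the SE of each log2 change given for loci of this class, so that it is no measure of precision. At chr9:114456351-114458550 H3K4me2 covered 2075 bp in E11.5 replicate 1 and 2175 bp in replicate 2, and 0 bp in all 6 later lists. Its H3K27ac covered 2200 and 775 bp, so that H3K4me2 was the longer mark in replicate 2. The log2 change was -3.54 (SE 0.103) in each comparison. At chr4:133566176-133568650 H3K4me2 covered 1825 and 1900 bp at E11.5 and 0 bp in all 6 later lists, a log2 change of -3.37 (SE 0.0963). There H3K27ac covered 2475 and 900 bp. In these 2 loci the replicates of H3K4me2 lay within 100 bp of each other.

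At the other 3 the E11.5 replicates were further apart. At chr17:48403751-48406400 H3K4me2 covered 925 and 1725 bp at E11.5 and 0 bp later (log2 change -2.88, SE 0.265). At chr2:127916576-127918850 it covered 1025 and 1400 bp and then 0 bp (-2.81, SE 0.147), beside 2275 and 1550 bp of H3K27ac. At chr14:122686951-122688625 it covered 750 and 1675 bp and then 0 bp (-2.74, SE 0.329). Replicate 2 was the longer at all 3, as is its list as a whole.

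The 2 most acetylated loci with H3K4me2 in both E11.5 lists belong to the same class, and their later values are 0 bp, and their SE lowered, by the same choice. At chr9:21938776-21942775 H3K27ac covered 4000 and 2025 bp, and H3K4me2 covered 825 and 1425 bp at E11.5 and 0 bp later. The log2 change was -2.69 (SE 0.229). At chr11:87562026-87565325 H3K27ac covered 3300 and 2450 bp, and H3K4me2 475 and 875 bp at E11.5 and 0 bp later, a log2 change of -2.09 (SE 0.226). H3K4me2 covered the shorter part of both loci.

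**Figure D5:**
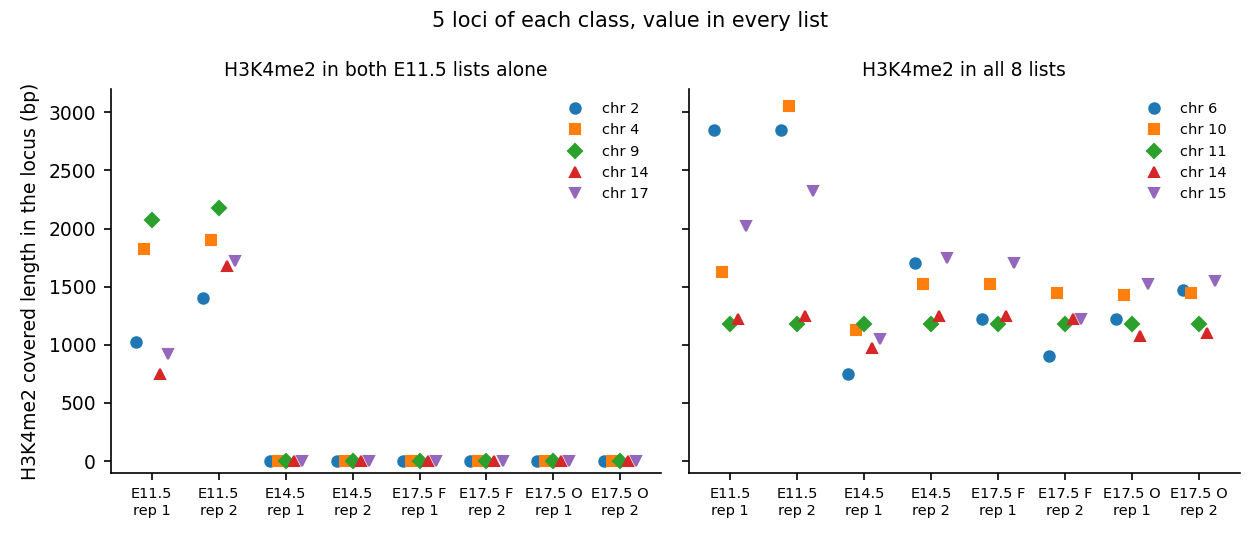
H3K4me2 covered length in bp at 10 H3K27ac loci only at E11.5, in each of the 8 H3K4me2 lists, for the 5 loci with most E11.5 H3K4me2 among those with none later (left) and among those with H3K4me2 in all 8 lists (right); symbols mark loci by chromosome. Left, every later value is 0 bp by the choice of loci; right, later values lie between 750 and 1750 bp.

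The 5 loci with the longest E11.5 H3K4me2 among those that kept it were of 2 kinds. At chr6:23221401-23224250 H3K4me2 covered all 2850 bp in both E11.5 lists, then 750 and 1700 bp at E14.5, 1225 and 900 bp in frontal and 1225 and 1475 bp in occipital cortex. All later values lay below those of E11.5, by -1.18, -1.28 and -0.98 on the log2 scale, with limma adjusted p of 0.4, 0.149 and 0.154. At chr15:75906576-75908900 it covered 2025 and 2325 bp at E11.5 and 1049 to 1750 bp later, again without overlap and without a call. At chr10:120156901-120160025 it covered 1625 and 3050 bp at E11.5 and 1125 to 1525 bp later. At these 3 loci H3K4me2 was shorter in every later list than in either E11.5 list, and the change did not pass the test. At the locus on chromosome 6 it did pass in frontal and occipital cortex without E14.5 replicate 1 (limma adjusted p = 0.02229 and 0.03027) or replicate 2 (0.02193 and 0.02979) and scaled to the list's length (0.04777 and 0.02354), and at E14.5 without E14.5 replicate 2 (0.03071). At the locus on chromosome 10 it passed in occipital cortex when scaled (0.01805).

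At the other 2 loci H3K4me2 filled most or all of the locus in every list. At chr11:59102851-59104025 it covered 1175 bp, the whole locus, in all 8 lists, beside 1175 and 525 bp of E11.5 H3K27ac. At chr14:54466251-54467500 it covered 1225 and 1250 bp at E11.5 and 974 to 1250 bp later, beside 550 and 1250 bp of H3K27ac. At this locus a call appeared at E14.5 without E14.5 replicate 2 (limma adjusted p = 0.02174) and in occipital cortex without E14.5 replicate 1 or 2 (0.02526 and 0.0231), with log2 changes of -0.29 and -0.16. Since covered length cannot exceed the locus, a change in H3K4me2 beyond its edges is not seen in these values. In both, H3K27ac was called over 1175 or 1250 bp in a replicate at E11.5 and in no list later, while H3K4me2 was called at about its E11.5 length throughout.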

How the data were processed

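The authors deposited, for each ChIP sample, a list of called regions with chromosome, start and end in bp and no score. The submitters' processing notes name Bowtie 0.12.9 and the builds mm9 and hg19. Which caller and threshold made the regions, and how the input entered, was not given in the sources used here. Neighbouring regions of a list lay over 1000 bp apart. All 8 H3K27ac and 8 H3K4me2 mouse lists were used. The 2 replicates of a tissue are biological, per the series' design text. Positions are written 1-based.

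Overlapping or touching H3K27ac regions were merged into loci, and covered bp per list was computed in Python 3.11.15 with numpy 2.4.6 and pandas 2.3.3. H3K4me2 was tested with limma 3.58.1 (lmFit, eBayes with trend) in R 4.3.3 on log2(covered bp + 200), with a mean per tissue over 8 lists. The fit was tested on simulated data. P-values are Benjamini-Hochberg adjusted over 50325 loci.

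Loci named are the 8 with the largest mean E11.5 H3K27ac coverage, the 5 with the largest E11.5 H3K4me2 among those with it in both E11.5 lists and no later list and likewise in all 8 lists, and the clusters, leaving out chromosome 18. The locus on chromosome 1 described within its cluster was chosen after its values were seen. The members, the rule and the tests were chosen with earlier results of these data known. Alternatives were other pseudocounts, filters, merging and overlap rules, scaling to the list's length, equal numbers of regions, a replicate block, and leaving out each list. No annotation or genome of mm9 was at hand, so gene context and sequence were not analysed here.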

Additional observations from a re-analysis of the deposited data

Results flagged for a closer look

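At 2 of the 744 loci H3K4me2 differed between occipital and frontal cortex at E17.5, in a comparison added to the same limma fit after seeing the data. Over all 50325 tested loci 0.523% were lower and 6.16% higher in occipital cortex, so 1 locus each way among 127 tested is near or under that background. At chr2:163223176-163224550 H3K4me2 covered 875 and 1300 bp at E11.5, 700 and 800 bp at E14.5, 775 and 650 bp in frontal cortex and 0 bp in both occipital lists. The log2 difference, occipital minus frontal, was -2.19 (SE 0.225, limma adjusted p = 0.005813). Both occipital values are 0 bp, which leaves no spread between them and lowers the SE. With H3K4me2 required in at least 3 lists this locus was still tested but not called. In that setting 10 of all 43648 loci were lower and 101 higher in occipital than in frontal cortex. This locus is also the 1 called lower in occipital cortex against E11.5 outside the class with no later H3K4me2. At chr5:147179351-147180300 H3K4me2 was absent from 6 lists and covered 300 and 550 bp in occipital cortex, a log2 difference of 1.61 (SE 0.196). It passed the filter of 2 H3K4me2 lists through occipital cortex alone, so its call was built in and supports nothing. It is the 1 locus called higher in occipital cortex against E11.5.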

How the results depend on the processing

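Taking an equal number of the widest H3K27ac regions per list gave 1566 loci only at E11.5, regions of at least 1000 bp gave 294, and leaving out a list gave 766 to 7032. The count was 7032 without E11.5 replicate 1 and 5042 without replicate 2, since the rule then asks for 1 E11.5 list. With equal numbers of H3K4me2 regions, 60 loci held H3K4me2 in both E11.5 lists and 6 in all 8, and 10 did so with an overlap of at least 50%. Without 1 H3K4me2 list the range was 99 to 238 for both E11.5 lists, 39 to 156 for these with none later, 18 to 22 for all lists and 482 to 599 for no list. A gap of 100 kb gave 9 clusters.

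With H3K4me2 required in at least 3 lists, which removes the 39 loci by construction, 0, 0 and 1 E11.5-only loci were lower by limma (12, 19 and 19 at an unadjusted p below 0.05), in the order E14.5, frontal, occipital. Over all 43648 loci then tested, of which 73 were E11.5-only loci, 189, 335 and 174 were lower, and 3967 higher in occipital cortex. At an unadjusted p below 0.05, 1370, 1758 and 887 of the 43648 were lower. Still, 18 of the 73 held H3K4me2 in both E11.5 lists and 1 later list. They passed this filter mostly through E11.5 and had to be 0 bp in most later lists. The lower counts of E11.5-only loci are thus in part built in here too, and support nothing further. Higher E11.5-only loci numbered 1 at E14.5 and 0 in occipital cortex with equal numbers of H3K4me2 regions, 0 in occipital cortex with at least 3 lists, and 1 in frontal and 2 in occipital cortex with H3K4me2 within 1000 bp. Equal numbers gave 1158, 1551 and 1916 loci lower in all, and 3741 higher in occipital cortex, so that 53.1%, 62.1% and 66.1% of calls were higher, against 63.2%, 80.8% and 91.2%. Scaling to the list's length gave 1265 lower in occipital cortex, and 1000 bp added gave 614 higher at E14.5. Leaving out a list, with a lone list assumed to vary like the others, gave 32 to 47, 33 to 50 and 36 to 53 E11.5-only loci lower and 0 to 0, 0 to 1 and 1 to 2 higher. Over all loci it gave 551 to 2513, 569 to 1309 and 597 to 1077 lower, and 777 to 3110, 2554 to 6572 and 5756 to 11222 higher.

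With the replicate number as a block, 33, 38 and 39 E11.5-only loci were lower, and 540, 765 and 678 loci in all. Deviations of same-numbered lists correlated at -0.0795 to 0.288 over 6 pairs of tissues, so the lists were taken to share only a number. Of the named loci's values under the alternatives 594 kept direction and side of the threshold, 19 lost the call and 11 gained one. These values include the named loci without later H3K4me2, whose direction was largely set by their choice, so the 594 are no measure of stability. The start-site distance was not run for want of an mm9 annotation. Read depth is unknown, so a region missing from a short list may be unmarked or undetected.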

Other observations

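Outside the autosomes, 25 loci of the X chromosome met the same presence rule, which is 2.76% of the 907 X loci called in both E11.5 lists, and 0 did on Y. Their median width was 1025 bp and the widest had 3550 bp. H3K4me2 was called in no list at 17 of them and in both E11.5 lists at 2. By list it was present at 2 and 8 loci at E11.5, 0 and 2 at E14.5, 2 and 0 in frontal cortex, and 2 and 3 in occipital cortex.

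Of the 1582 loci called in both frontal H3K27ac lists alone, 9.26 ± 2.89% held H3K4me2 in frontal cortex. Of the 637 loci called in both occipital lists alone, 36.9 ± 15.3% held it in occipital cortex (means ± SD, n = 2 lists each). Over all autosomal loci the shares were 30.1 ± 2.76% in frontal and 40.1 ± 8.2% in occipital cortex, so the occipital value lies within the spread of the lists. In the other tissue, the frontal loci held H3K4me2 at 15.3 ± 8.44% in occipital cortex, a higher mean than in their own. The occipital loci held it at 10.5 ± 4.47% in frontal cortex.

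Loci only at E11.5 lay a median of 12.9 and 4.26 kb from the nearest H3K4me2 region of the E11.5 lists, near the 13.6 and 5.47 kb over all autosomal loci.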
